A study of Mus musculus with 24 samples.

Results

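Of 24 cerebellar RNA-seq libraries from neonatal mice, 4 nearly lacked the marker transcripts of the choroid plexus epithelium. They were chosen by their level of Ttr, the transthyretin gene: Ttr counts divided by all counts of the library gave 1.14 CPM (counts per 1e6 counts) in Vehicle X4770, 2.60 in Vehicle X4761, 3.41 in Ethanol X4766 and 3.58 in Ethanol X4568. The limit of the choice was 20 CPM. The first library above it, Ethanol X4765, stood at 325 CPM, and the other 20 libraries reached 5050 CPM, with a median of 2514 CPM. The 4 low libraries thus came from 2 Ethanol and 2 Vehicle animals, and the other 20 from 10 animals of each treatment.

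All animals were C57BL/6J pups. The Ethanol animals received 4 g/kg/day of ethanol by gavage in 20% intralipid from postnatal day (P) 4, and the Vehicle animals received intralipid with water in place of ethanol. The study took the tissue at P5 or P6, 24 h after the last dose, from animals perfused with heparinised saline, as 3 males and 3 females per treatment and age, and asked how ethanol changes the cerebellar transcriptome soon after exposure starts. The labels give neither age, sex nor litter of an animal, and they name the tissue as brain where the study names microdissected cerebellum. They also name a different homogeniser and RNA kit from those in the study's methods, and which of them was used is not resolved. Each library was its own animal by label, so p-values measure the spread between these animals. That spread holds age, sex and litter together. Every fit here pools both ages, which the study analysed separately, and counts littermates as independent unless the grouping below serves as a block. In numerical order the animal numbers form 6 runs of 4, with 2 animals of each treatment in each, which serve here only as a technical grouping. By the study's methods every one of 6 litters gave 4 animals, a male and a female per treatment. The runs have the same size and make-up by treatment, but no label ties an animal to a litter. Run 6 held Ethanol X4766 and Vehicle X4770, run 1 held Ethanol X4568 and run 5 held Vehicle X4761. The other libraries of run 6, Ethanol X4765 and Vehicle X4768, had the lowest Ttr of the remaining 20 (325 and 699 CPM). The low libraries were as deep as the rest, with 28705782 to 36038662 estimated counts against 26982564 to 38804942.

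The choroid plexus is a fold of secretory epithelium over a core of leaky vessels and connective tissue that hangs into each brain ventricle. Its epithelial cells pump ions and water into the ventricle to make cerebrospinal fluid, form a barrier to the blood by tight junctions, and release carrier proteins and growth factors. The plexus of the fourth ventricle grows from the hindbrain roof plate, next to the cerebellum, and can stay attached to it or come away when the cerebellum is lifted out. Transthyretin, a carrier of thyroid hormone and of the retinol-binding protein, is its best known product.

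Promoter sequence is shown for 3 genes among the most reduced in the low libraries, as the text in front of genes that moved together: Mfrp, a frizzled-related membrane protein, Slc4a5, a sodium bicarbonate carrier, and Aqp1, the water channel of the apical membrane. Each line gives the 250 bases before the annotated start, 5′ to 3′ on the strand of the gene (plus for all 3), from RefSeq on GRCm38.p6, which is an earlier build than the GRCm39 of the counts. Capitals mark GGATTA, the reverse complement of TAATCC, a core that Otx homeodomain factors bind; Otx2 is such a factor in choroid plexus epithelium.
Mfrp, chr9:44101520-44101769: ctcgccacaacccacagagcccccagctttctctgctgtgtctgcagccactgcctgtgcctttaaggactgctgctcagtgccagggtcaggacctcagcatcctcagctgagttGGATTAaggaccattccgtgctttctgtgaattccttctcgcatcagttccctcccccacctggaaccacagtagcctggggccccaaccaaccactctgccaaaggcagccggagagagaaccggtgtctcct
Slc4a5, chr6:83237125-83237374: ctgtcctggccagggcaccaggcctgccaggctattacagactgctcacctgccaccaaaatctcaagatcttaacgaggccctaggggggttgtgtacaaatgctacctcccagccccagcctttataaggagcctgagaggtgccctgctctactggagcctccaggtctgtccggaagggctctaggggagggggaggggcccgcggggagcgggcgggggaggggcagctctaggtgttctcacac
Aqp1, chr6:55336049-55336298: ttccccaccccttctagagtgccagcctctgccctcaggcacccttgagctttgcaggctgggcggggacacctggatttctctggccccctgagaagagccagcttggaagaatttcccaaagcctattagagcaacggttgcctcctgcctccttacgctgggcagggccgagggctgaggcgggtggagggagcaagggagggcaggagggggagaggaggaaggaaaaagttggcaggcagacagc
Among these 3 windows the core, searched on both strands, occurred once, in Mfrp, beginning 134 bases before the start. Windows of Tmem72 and Kcne2, also among the most reduced genes, were searched too, are not shown and did not hold it. The core was in 6.25% of 32851 promoter windows of this length. Among 74 choroid plexus genes with a promoter in the table, out of 93 listed, it was in 5 of 100 windows (5%). The match is a description of these letters and says nothing of binding.

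The markers of the plexus were low together in all 4 libraries. From here on CPM of single genes are scaled by the trimmed mean of M-values (TMM). Sostdc1, a secreted antagonist of BMP and Wnt signals, was at 0.236 CPM in Vehicle X4770, 0.0965 in Vehicle X4761, 0.210 in Ethanol X4766 and 0.360 in Ethanol X4568, and between 2.74 and 42.0 (median 17.8) in the other 20. Kcne2, a potassium channel subunit of the epithelium, was at 0.413, 0.418, 0.280 and 0.360 CPM in the same order, against 2.19 to 34.6 (median 12.7). Neither gene overlapped between the low and the other libraries.
Folr1, the receptor that carries folate into the cerebrospinal fluid, was at 0.236, 1.29, 0.699 and 0.802 CPM in Vehicle X4770, Vehicle X4761, Ethanol X4766 and Ethanol X4568, against 3.12 to 42.6 (median 22.0). Aqp1 was at 1.77, 1.29, 1.40 and 1.08 CPM, against 6.94 to 76.6 (median 37.0). The order of the low libraries differed between markers, since the lowest in Ttr, Vehicle X4770, was the highest in Aqp1. The mean level left in the low libraries was 0.0997% of the other 20 for Ttr, 1.08% for Sostdc1, 2.48% for Kcne2, 3.32% for Folr1 and 3.46% for Aqp1.
These levels rest on few counts: over all 4 low libraries there were 347 counts of Ttr, 179 of Aqp1, 97 of Folr1, 48 of Kcne2 and 30 of Sostdc1. In bulk tissue, fewer cells of a type and less RNA per cell cannot be told apart.

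**Figure D1:**
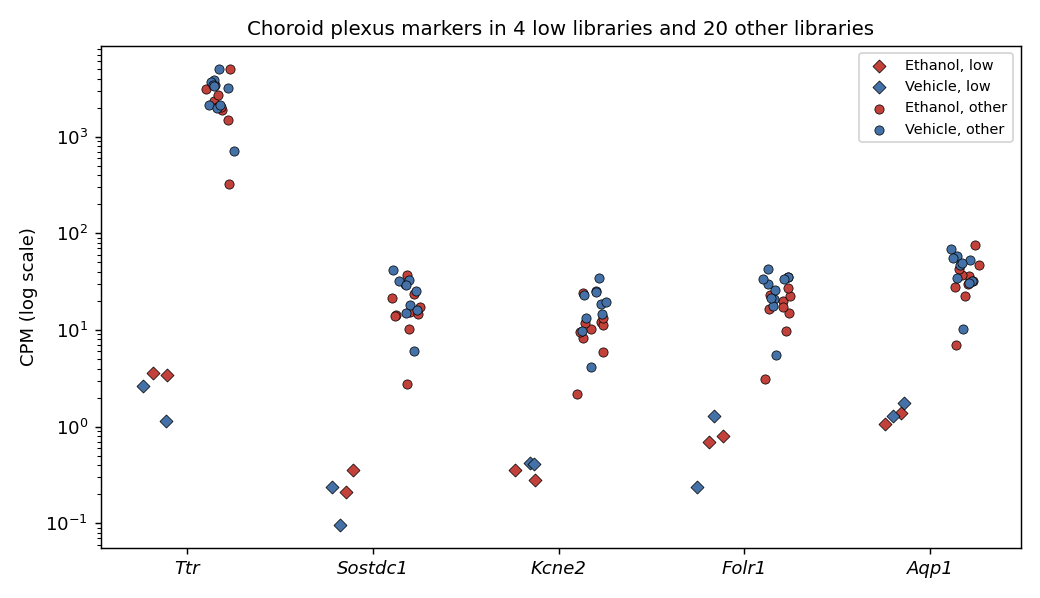
CPM of 5 choroid plexus markers (log axis) in each library; diamonds are the 4 low libraries, circles the 20 others, red Ethanol and blue Vehicle. In each marker all diamonds lie below all circles, and Ttr spans 322 to 5049 CPM among the circles.

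A comparison of the 4 low libraries with the other 20 across all genes, with treatment as a covariate, describes how far the loss extends. Because the libraries were chosen by Ttr on the same counts, its values are a description: no p-value is printed, and the threshold of the fit serves only to count genes as lower or higher. Of 17736 genes, 735 were lower (4.14%) and 54 higher (0.304%) past the adjusted threshold of 0.05 of edgeR's quasi-likelihood fit. The counts depend on single libraries: they were 430 lower and 7 higher without Vehicle X4761, 360 and 8 without Vehicle X4770, and 570 and 18 without Ethanol X4766. In the 12 libraries of runs 1, 5 and 6 alone they were 187 and 8, and with the runs as a block 401 and 9. Most of the differences were small: 208 of the 735 genes were reduced by a log2 fold change of 1 or more, and the median over all genes was 0.00. In 211 genes (1.19%) each low library was below each other library.
The low libraries stood together at one end of the leading axis of variation (19.5% of the variance of log2 CPM). They scored 32.5 to 34.4 and the others -24.2 to 16.0, and 13 of the 20 genes with the highest weights belong to the choroid plexus lists. Ttr, among these 13, had the highest weight of all. Since Ttr chose the low libraries, their place on this axis follows in part from the choice. Without the low libraries none of the first 4 components had such a gene among its top 20.

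After Ttr, at a log2 fold change of -9.95 (SE 0.82), the most reduced genes, counting those whose log2 CPM averaged 0 or more, included Mfrp at -6.98 (SE 0.79), Sostdc1 at -6.47 (SE 0.82), Slc4a5 at -6.32 (SE 0.78), Kcne2 at -5.30 (SE 0.72), Tmem72, a membrane protein, at -5.22 (SE 0.66), Folr1 at -4.91 (SE 0.67), Aqp1 at -4.85 (SE 0.62) and the epithelial keratin Krt18 at -4.65 (SE 0.63). Mfrp stood at 0.295 CPM in Vehicle X4770, 0.129 in Vehicle X4761, 0.210 in Ethanol X4766 and 0.0553 in Ethanol X4568, against 3.12 to 39.4 (median 18.3) in the others. Another 4 genes above that mean had no count in any low library: 2900040C04Rik, Ugt1a6b, Defb11 and Ldc1. Of the tested genes below it, Klk4, a kallikrein protease named after its values were seen, also had none, against a mean of 0.828 CPM in the others.
With 3 counts over the group as the limit that a count of 0 allows, 2900040C04Rik was at least 129-fold lower, Ugt1a6b, a glucuronosyltransferase, at least 121-fold, Defb11, a beta-defensin, at least 73.3-fold, and Ldc1 at least 51.6-fold. In the other libraries they lay at 0.406 to 6.18, 0.265 to 6.41, 0.108 to 3.58 and 0.0813 to 2.47 CPM. Ugt1a6b shares much of its sequence with other genes of the Ugt1a cluster, so its estimated counts depend on how reads were divided. Prr32, a proline-rich protein, had 3 counts, all in Ethanol X4766, against 0.434 to 11.97 CPM in the others. Hoxd3, a hindbrain segment gene, was also among the 15 most reduced above that mean (4 counts, all in Ethanol X4568), without passing the threshold.

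Choroid plexus genes were next grouped by role. Of 93 listed genes 91 had enough counts, and 68 of them were lower, with none higher, at a median log2 fold change of -0.94 against 0.00 over all genes. Ttr, lower by the choice, is among the 68. This count was 54 without Vehicle X4770, 55 without Vehicle X4761 and 52 with the runs as a block. It was 40 in runs 1, 5 and 6 alone and 73 without the other libraries of run 6. In 46 of the 91 each low library was below every other library, beside 1.19% of all genes. The level left was under 10% in 21 genes and under 50% in 43.
Of 22 secreted proteins and their receptors, 20 were lower (median -1.42). Kl, the klotho gene of the epithelium, was at 0.708, 0.450, 0.944 and 0.830 CPM in Vehicle X4770, Vehicle X4761, Ethanol X4766 and Ethanol X4568, against 4.34 to 30.6 in the others, so that 4.13% was left. Ecrg4, a secreted peptide precursor, kept 8.84%, Htr2c, the serotonin 2C receptor, 21.1%, and Enpp2, the enzyme autotaxin that makes lysophosphatidic acid, 23.2%. For Enpp2 the low libraries lay close together, between 84.8 and 91.9 CPM, against 154 to 607 CPM. Igfbp2, an IGF-binding protein, kept 52.5% and Igf2, a growth factor of plexus and meninges, 64.4%. Igf2 overlapped between the groups.
Of 34 channels, pumps and carriers, 27 were lower (median -1.23). Clic6, a chloride channel protein, lay at 2.42, 2.32, 2.13 and 2.74 CPM in the same order, against 7.29 to 79.4 (5.79% left). Car12, a carbonic anhydrase, kept 8.0%, the potassium channel gene Kcnj13 6.09%, the sulfate carrier Slc13a4 32.4% and Trpm3, a cation channel, 34.5%. Slc12a2, the cotransporter NKCC1, kept 81.8%. Slc15a2, a peptide carrier, and Abcc4 and Abcg2, drug efflux pumps, did not pass, at 106%, 99.0% and 95% of the other libraries.
Of 11 transcription factors and regulators of patterning and ciliogenesis, 5 were lower (median -0.61). Gmnc, a regulator of multiciliated cells, kept 12.3% and Msx1, a roof plate homeobox gene, 25.5%. Otx2 was at 26.6 CPM in Vehicle X4770, 42.4 in Vehicle X4761, 42.9 in Ethanol X4766 and 34.0 in Ethanol X4568, within the 22.6 to 71.6 of the others, and its fold change of -0.59 (SE 0.18) did not pass. Msx2 and Trp73 stood at 106% and 102%.
Of 24 epithelial genes, 16 were lower (median -0.95). Cldn2, which forms the paracellular water and sodium pores of leaky epithelia, kept 8.10%, Cldn1, a sealing tight junction protein, 4.03%, and the keratins Krt8 and Krt18 6.42% and 3.99%. Occludin (Ocln) kept 62.6%, and Cldn3, Cgn and Rdh5 stood at 103%, 92.0% and 100.4% without passing. Cldn1 was higher in Ethanol X4568 (1.11 CPM) than in the other low libraries (0.161 to 0.419), and its log2 fold change of -4.56 (SE 0.69) was -5.56 without that library. The level left thus ran from 0.0997% to 106% across the 91 genes.

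**Figure D2:**
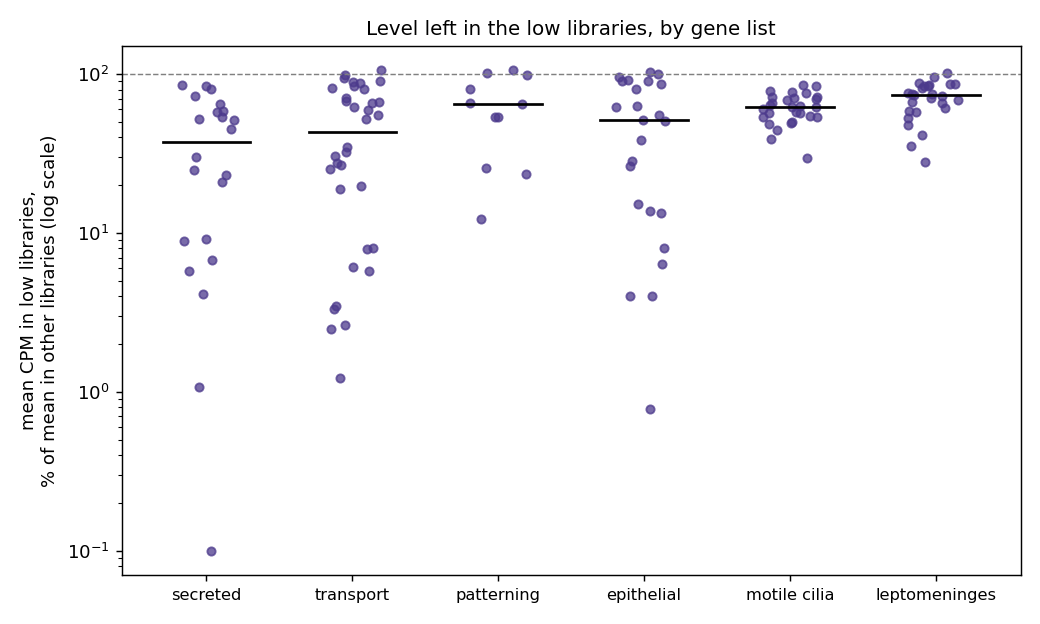
Mean CPM in the 4 low libraries as a percentage of the mean in the 20 others (log axis) for each tested gene of 4 choroid plexus lists, motile cilia and leptomeninges; each point is a gene, the bar is the median and the dashed line marks 100%. Points of the plexus lists reach from 0.0997% (Ttr) to 106%, and no motile cilia or leptomeningeal gene lies under 27%.

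Motile cilia are carried by plexus and ependymal cells. Of 28 of their genes, 17 were lower (median -0.67), beside 4.14% of all genes. The count was 7 without Vehicle X4770, 9 with the runs as a block and 1 in runs 1, 5 and 6 alone. Foxj1, the regulator of motile cilia, kept 53.5%, and Spag6l, a protein of the central pair, 44.5%. Their summed level, with Foxj1 left out as a plexus gene, was 60.9 CPM in Vehicle X4770, 78.7 in Vehicle X4761, 75.2 in Ethanol X4766 and 85.6 in Ethanol X4568, against 79.5 to 155 (median 116) in the others. Ethanol X4568 overlapped the others and the rest of the low libraries did not.

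Fibroblast genes of the leptomeninges, the inner membranes that cover the brain and continue into the plexus core, were also reduced. Of 26, 15 were lower (median -0.44), beside 4.14% of all genes. This count fell to 5 without Ethanol X4568, 4 without Vehicle X4761 and 4 without Vehicle X4770, was 9 with no filter on low counts and 10 with no treatment term, 5 with the runs as a block and 2 in runs 1, 5 and 6 alone. Slc26a7, an anion exchanger, was at 1.06, 0.740, 1.71 and 0.691 CPM in Vehicle X4770, Vehicle X4761, Ethanol X4766 and Ethanol X4568, below the 2.04 to 5.87 of the others. Ccn3, a matrix protein, was at 4.48, 3.06, 10.8 and 5.31 CPM against 8.29 to 24.04, and the level of Ethanol X4766 lay within that range. Ptgds, prostaglandin D synthase, was at 222, 112, 339 and 262 CPM against 253 to 642. The summed level of 25 of these genes was 1599, 1354, 1669 and 1474 CPM in the same order against 1450 to 2218, and 1 of 4 low libraries was below all others.
Of 8 genes of fenestrated vessels, 4 were lower, among them Plvap, the diaphragm protein of fenestrae, at 3.63, 3.47, 3.49 and 2.96 CPM against 3.98 to 9.78, and Esm1, a product of endothelial tip cells, with 26.8% left. The summed level of the 8 genes was not reduced, at 554 to 586 CPM against 498 to 611 (median 548) in the others. DESeq2 counted 5 lower and 1 higher, and in runs 1, 5 and 6 alone 2 were lower. Of 43 genes of other endothelium, mural cells and border macrophages, 4 were lower (median -0.11), beside 4.14% of all genes.
Taken as a whole, genes of the cerebellum itself moved little. Of 131 genes of granule cells, Purkinje cells, interneurons and nuclei, Bergmann glia and astrocytes, oligodendrocyte lineage and microglia, 4 were lower and 2 higher (median 0.01, against 4.14% and 0.304% of all genes). The higher ones were Barhl1, a homeobox gene of granule cell progenitors, at 0.26 (SE 0.06), and Mki67, a marker of dividing cells, at 0.13 (SE 0.04). Barhl1 was at 221 CPM in Vehicle X4770 and 188 in Vehicle X4761, above the 128 to 182 of the others. In Ethanol X4766 (174 CPM) and Ethanol X4568 (168 CPM) it lay within that range. Barhl1 and Mki67 belong to a list of 16 genes of granule cell progenitors, with a median log2 fold change of 0.10. The summed level of that list was 3460, 3284, 3233 and 3088 CPM in Vehicle X4770, Vehicle X4761, Ethanol X4766 and Ethanol X4568. In the others it lay between 2761 and 3193 CPM (median 3060), and only Ethanol X4568 overlapped them. Of the cerebellar lists pooled above, that of oligodendrocytes had the lowest median, -0.26 over 14 tested genes, of which 1 kept under 50%. Its sum was 714 to 1181 CPM in the low libraries against 670 to 2083 in the others. All 54 higher genes had log2 fold changes between 0.09 and 0.73. Above the same mean level, the 15 most increased genes, led by S100a9 (1.21) and S100a8 (1.20), calcium-binding proteins of neutrophils, did not pass.
Hindbrain Hox genes, which the cerebellum lacks and the adjoining medulla expresses, were low as well. Their sum over 17 genes was 0.443 CPM in Vehicle X4770, 0.547 in Vehicle X4761, 0.349 in Ethanol X4766 and 1.85 in Ethanol X4568, against 0.895 to 83.6 (median 3.43) in the others, and 3 of the 17 genes had no count in any low library. The first 3 values lay below all other libraries. Of the 4 Hox genes with enough counts, 1 was lower (Hoxa2, -2.88, SE 0.70). Other lists of neighbouring tissue moved less. Of 15 tested genes of brainstem neurons 0 passed as lower, but their median log2 fold change was -0.30. Of these 15, 4 kept under 50%, beside 265 of all 17736 genes. The summed list was at 149 to 172 CPM, within the 143 to 248 of the others but below their median of 178. The sum of 25 midbrain and forebrain genes was 256 to 304 CPM in the low libraries against 200 to 264 in the others. Most of it was Barhl1, the gene of granule cell progenitors above, at 168 to 221 CPM against 128 to 182. The list was not summed without Barhl1. The part of neighbouring hindbrain tissue in the differences above was not tested.

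**Figure D3:**
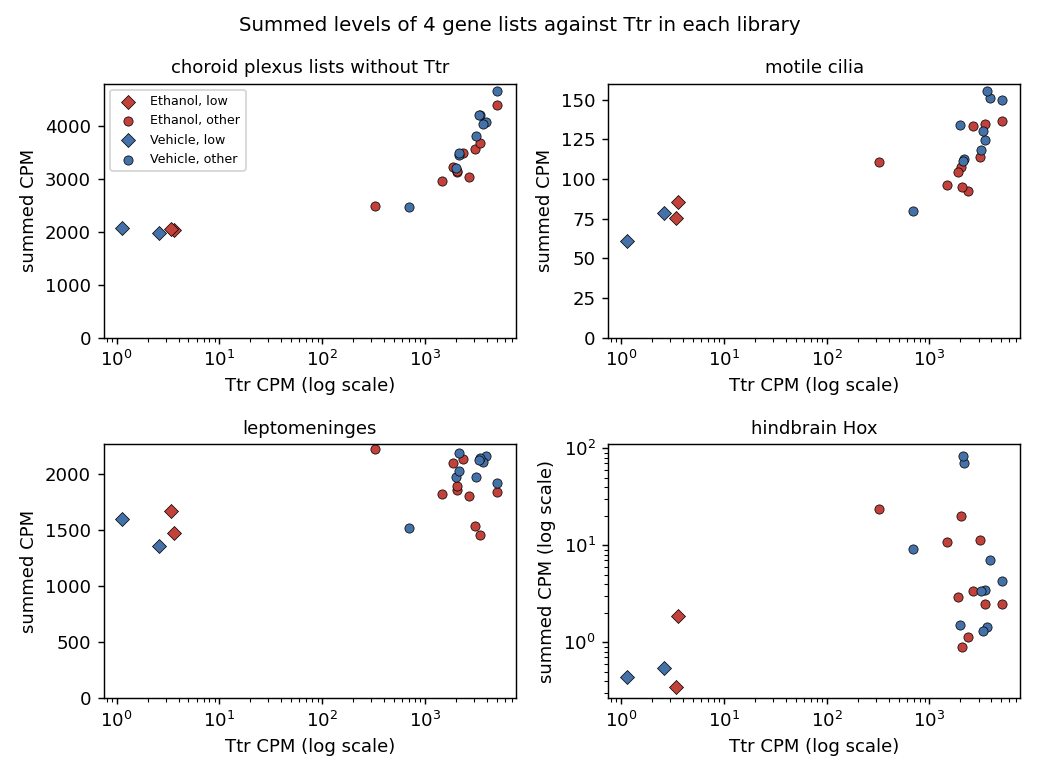
Summed CPM of 4 gene lists against Ttr CPM (log axis) in each library; diamonds are low libraries, circles the others, red Ethanol and blue Vehicle, and the Hox panel has a log axis. The plexus sum without Ttr runs from 1979 to 2078 CPM in the low libraries and from 2463 to 4663 CPM in the others, while the leptomeningeal sums overlap.

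Whether the same genes follow the plexus where it was present was tested in the other 20 libraries, which the choice of the 4 did not separate. Each gene was fitted on log2 Ttr CPM, which spanned 3.96 log2 units, with treatment as a covariate; a slope of 1 means that a gene doubles when Ttr doubles. Of 17768 genes, Ttr left out, 274 rose with Ttr (1.54%) and 31 fell (0.174%). Sostdc1 had a slope of 0.96 (SE 0.04, adjusted p = 3.87e-15), Folr1 of 0.96 (SE 0.04, adjusted p = 9.02e-15), Kcne2 of 0.93 (SE 0.06, adjusted p = 2.95e-10) and Aqp1 of 0.90 (SE 0.03, adjusted p = 5.81e-16) from edgeR.
Of the 734 tested genes that were lower in the low libraries, 236 rose with Ttr in the 20, and of the 207 of these reduced by a log2 fold change of 1 or more, 136 did. Among 90 choroid plexus genes 57 rose, at a median slope of 0.28 against 0.00 over all genes. They were 15 of 21 secreted proteins, 22 of 34 channels and carriers, 4 of 11 regulators and 16 of 24 epithelial genes. Mfrp had a slope of 0.88 (SE 0.03), Slc4a5 of 0.95 (SE 0.05), Tmem72 of 0.91 (SE 0.04), Clic6 of 0.86 (SE 0.04), Enpp2 of 0.53 (SE 0.06), Trpm3 of 0.35 (SE 0.04) and Otx2 of 0.28 (SE 0.05, adjusted p = 0.001 from edgeR). The relation between the level left and the slope was not tested, and Hoxd3, with 2.08% left, had a slope of -0.91 (SE 0.39) that did not pass.
Few leptomeningeal genes passed along Ttr. Of 26, 1 rose, Lum, a collagen-binding proteoglycan, at 0.26 (SE 0.04), and the median slope was 0.01. Slc26a7 had a slope of 0.16 (SE 0.09, adjusted p = 0.43) and Ccn3 of -0.10 (SE 0.11, adjusted p = 0.77) in edgeR. Of 28 motile cilia genes, 7 rose (median 0.16), 15 without Ethanol X4765, the library of lowest Ttr, and 4 without Vehicle X4571, the highest. With the runs as a block edgeR called 0 of them, with 10 at an unadjusted p under 0.05, while DESeq2 and limma-trend without the block called 10 and 9. Of 8 genes of fenestrated vessels, Plvap rose at 0.33 (SE 0.04, adjusted p = 1.81e-06 from edgeR).
The genes of smallest p that fell with Ttr had small slopes. They included Htra1, a serine protease of astrocytes, at -0.20 (SE 0.03), Aldoc, the aldolase of Bergmann glia and Purkinje cells, at -0.17 (SE 0.04), Gad2, a GABA-synthesising enzyme, at -0.15 (SE 0.03), and Slc32a1, the vesicular GABA carrier, at -0.10 (SE 0.02). In the low libraries these 4 genes stood at 87.5%, 96.2%, 91.2% and 99.6% of the others and did not pass.
Run 6 held both libraries with Ttr under 1000 CPM among the 20. Without its 2 libraries 193 genes rose and 1 fell, and 48 of the 90 plexus genes rose. With the runs as a block, 96 rose and 1 fell, 41 of the plexus genes among the first; Sostdc1 then had a slope of 1.04 (SE 0.06), Folr1 of 0.89 (SE 0.07), Kcne2 of 0.96 (SE 0.10) and Aqp1 of 0.87 (SE 0.05). Without Ethanol X4765 504 genes rose and 384 fell, and without Vehicle X4571 236 rose and 12 fell. Enpp2 moved to 0.70 (SE 0.10) with the block.

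**Figure D4:**
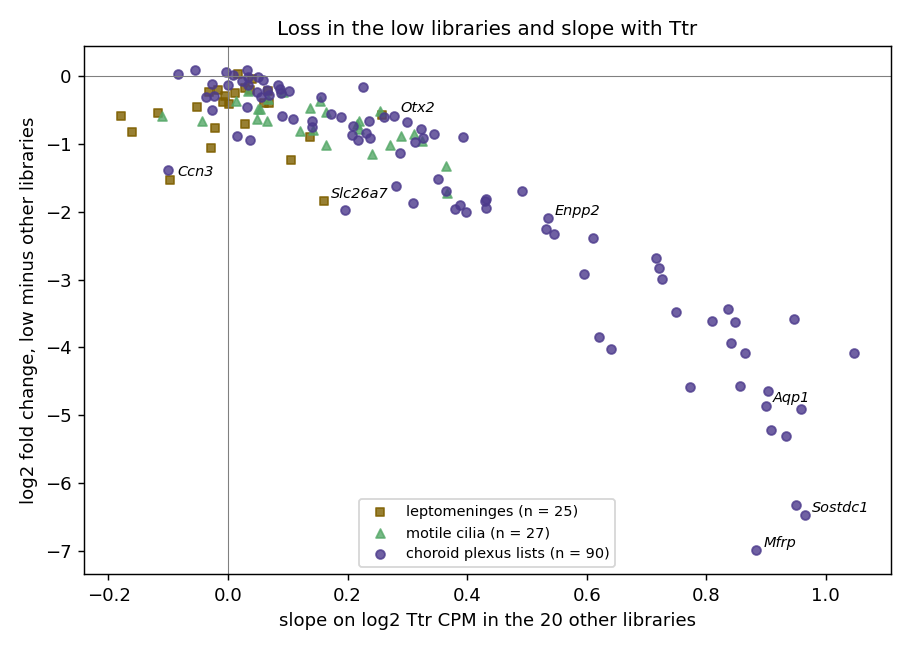
Log2 fold change of the low against the other libraries and slope on log2 Ttr CPM within the 20 other libraries for each tested gene of the choroid plexus lists (circles), motile cilia (triangles) and leptomeninges (squares). Plexus genes run from near 0 on both axes to Sostdc1 at a slope of 0.96 and a fold change of -6.47; Slc26a7 and Ccn3 are reduced with slopes of 0.16 and -0.10.

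The study compared treatments, so the effect of ethanol was read in the low libraries. In the other 20, edgeR called 1818 of 17769 genes (10.2%), 1206 higher and 612 lower with ethanol. The 4 low libraries took no part in that fit, and their 2 Ethanol animals were compared with their 2 Vehicle animals on log2(CPM + 0.5). Of the 1206 genes, 1168 (96.8%) were higher in the low Ethanol libraries too, against 50.1% of all genes, and of the 612 genes 561 (91.7%) were lower, against 49.9%. Both Ethanol values were above both Vehicle values for 893 of the 1206 (74.0%, beside 22.0% of all genes) and below for 402 of the 612 (65.7%, beside 21.8%). The median difference was 0.18 in the low libraries and 0.21 in the 20 for the first group, and -0.17 and -0.22 for the second.
Chac1, an enzyme of glutathione breakdown that the integrated stress response induces, was at 11.8 CPM in Ethanol X4766 and 17.6 in Ethanol X4568, and at 3.75 in Vehicle X4770 and 4.02 in Vehicle X4761. In the 20 it ranged from 4.21 to 25.7 with ethanol and from 3.03 to 5.61 with vehicle. Mthfd2, a mitochondrial folate enzyme, was at 25.4 and 44.8 CPM in the same Ethanol libraries and at 19.9 and 20.8 in the Vehicle libraries. Col2a1, a fibrillar collagen, was at 62.9 and 43.0 against 78.3 and 76.9. All 12 genes of the stress list that were higher in the 20 were higher in the low Ethanol libraries, with no overlap between their 2 Ethanol and 2 Vehicle values.
Ethanol X4568 held the higher value of the pair for Chac1, Mthfd2 and Serpina3n, an inhibitor of proteases in reactive astrocytes, which stood at 27.3 CPM there and at 10.7 in Ethanol X4766. In Vehicle X4761 Serpina3n was at 10.3 CPM, above the 2.97 to 9.06 of the other Vehicle libraries.
A test of the difference itself, the interaction of ethanol with the low group, called 0 of 17736 genes in edgeR (0%), with 317 at an unadjusted p under 0.05. Limma-trend called 0 (352 unadjusted) and DESeq2 1 (309 unadjusted). The gene of DESeq2 was Rpl35a-ps6, a ribosomal pseudogene at 0 in 3 of the 4 low libraries and in 9 of the others. The smallest p in edgeR was that of Mgarp, a mitochondrial protein, at 1.85 and 1.64 CPM in Ethanol X4568 and X4766 and 1.00 and 1.29 CPM in Vehicle X4770 and X4761 (interaction 1.497, SE 0.33, adjusted p = 1.00). In the 20 its order was the opposite, at 0.597 to 1.53 CPM with ethanol and 1.65 to 2.29 with vehicle. With 2 low animals of each treatment, a missed threshold does not show that the effects were alike.

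**Figure D5:**
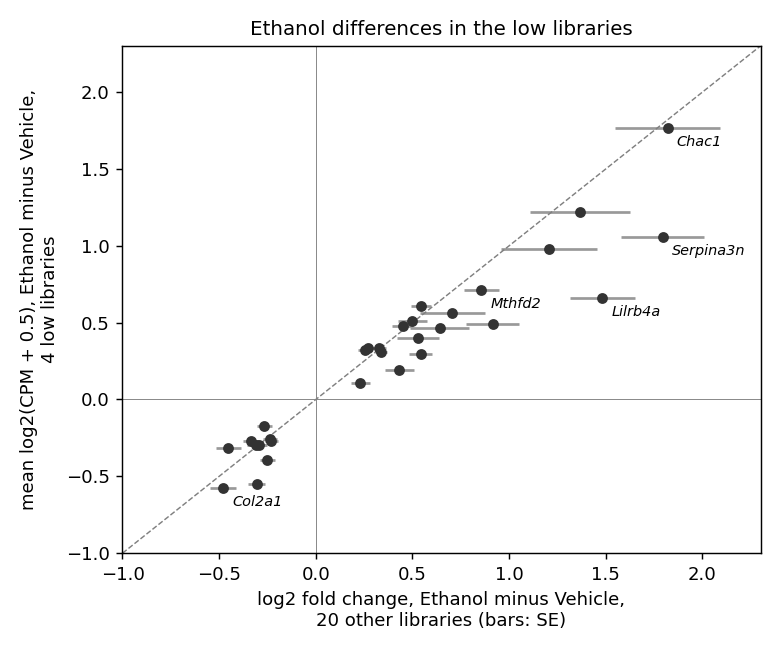
Ethanol minus Vehicle in the 4 low libraries, as a difference of mean log2(CPM + 0.5), against the log2 fold change in the 20 others with its SE, for 30 genes: the 10 of smallest p in each direction and the called members of the stress list. All points lie on the same side of 0 on both axes, with Chac1 at 1.82 and 1.77.

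Ethanol effects on the plexus genes themselves were estimated with and without the low libraries. Since those were chosen as the lowest in Ttr, a narrower interval without them follows from the choice. Over all 24 libraries the ethanol log2 fold change of Ttr was -0.27, with a 95% interval of -2.10 to 1.55. In the 20 it was -0.27 (-1.03 to 0.49), and with the low group as a term in the fit over 24 it was -0.18 (-0.87 to 0.51). In the 20, Ttr was at 2441 ± 1262 CPM (SD, n = 10) with ethanol and 2948 ± 1216 CPM (SD, n = 10) with vehicle.
The SE of the ethanol effect was smaller in the 20 for 75 of the 91 plexus genes and for 10.3% of all genes.
Kcne2 had an ethanol log2 fold change of -0.79 over 24 (edgeR adjusted p = 0.38), -0.79 in the 20 (0.16) and -0.78 with the term (0.10). Of the 91 plexus genes, edgeR called 3 over 24 (14.9% of all genes were called) and the same 3 in the 20: Rdh5, a retinol dehydrogenase, was higher at 0.24 (SE 0.04 over 24) and Msx2 and Ezr, a linker of membrane and cytoskeleton, were lower at -0.22 and -0.20 (SE 0.04 each). All 3 kept more than 90% of their level in the low libraries. With the term (16.0% of all genes called) Pltp, a phospholipid transfer protein, was added at -0.16 (SE 0.05, adjusted p = 0.034).
The study's own lists of glial states touch the plexus at few points. From these lists the study scored only the members that ethanol changed past its threshold. Ttr is a member of its list for oligodendrocyte precursors and Enpp2 of that for myelin-forming oligodendrocytes. Of 359 tested genes of the first list, 14 were lower in the low libraries and 1 kept under 50%, which was Ttr. Of 334 of the second, 21 were lower and 1 higher, and 3 kept under 50%. Of 739 microglia genes of the study, 36 were lower and 4 higher, beside 4.14% and 0.304% of all genes. Of 179 genes of its list for acutely injured astrocytes, 7 were lower, and 1 kept under 50%, Prelp at 46.8%. Of 83 genes of its pan-injury astrocyte list, 4 were lower, and 1 kept under 50%, A2m at 28.6%. In A2m each low library was below each other library. With ethanol in the 20, edgeR called none of Ttr, Enpp2, Prelp and A2m (adjusted p = 0.70, 0.58, 0.47 and 0.43). That fit pools the ages that the study kept apart.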

How the data were processed

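RNA of 24 cerebella (12 Ethanol, 12 Vehicle) was sequenced. The authors deposited estimated counts for each gene, made with nf-core/rnaseq. STAR, Salmon and limma, with the build GRCm39, stand in the submitters' processing notes with no version. The strand setting and the annotation release were not stated there. The labels and the study's methods name different RNA kits. Values were rounded, since 10.9% differed by over 0.01 from the nearest whole number. Of 55416 rows, 1597 repeat an earlier name and were kept apart. Each column was matched to its sample through the animal's number.

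Genes were filtered by filterByExpr on treatment, scaled by TMM (factors 0.982 to 1.01) and fitted with edgeR 4.0.16 in R 4.3.3 (glmQLFit, robust), with Benjamini-Hochberg adjustment over all genes tested and a threshold of 0.05; SE came from the F statistic. DESeq2 1.42.0, limma-trend (limma 3.58.1, prior count 2), RLE scaling, no filter, a stricter filter (1 CPM in 12 libraries), a term for the runs and left-out libraries were alternatives. The fit of low against other libraries and the slope fit were also run on simulated counts, drawn independently for each library. Those counts hold no age, sex or litter structure, so they cannot show how such structure affects the calls. No pair of libraries was a repeat (lowest mean chi-square 4.99 per gene over 276 pairs, where sampling noise gives 1). Intervals use a 95% level.

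The members, gene lists and tests were chosen with earlier results of these data known. Genes named were the 5 markers, members of the plexus lists, the 15 most reduced and 15 most increased genes with mean log2 CPM of at least 0, the highest or most changed members of other lists, the 10 of smallest p in each direction along Ttr, and plexus genes called with ethanol. Rpl35a-ps6, Mgarp, the genes of the stress list and the 20 genes of smallest p with ethanol were added after their values were seen, as was the comparison of treatments inside the low libraries.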

Additional observations from a re-analysis of the deposited data

Results flagged for a closer look

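Of 38 sets of 4 values tested in the low libraries, the 5 markers and 33 summed lists, 2 were flagged because 1 library stood apart from the other three; chance flags about 1 in 20. Both values belong to Ethanol X4568. Its summed level of hindbrain Hox genes was 1.85 CPM, 1.31 CPM above the next low library, and the ratio of that gap to the range was 0.869, above Dixon's 95% critical value for 4 values. Its summed level of genes of interneurons and cerebellar nuclei was 537 CPM, 91.7 CPM above the next (ratio 0.893), against 416 to 520 CPM in the other 20 libraries.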

How the results depend on the processing

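No called value changed sign under the alternatives run. Of 1700 single-gene values of low against other libraries, 1691 moved by less than the SD among the 20; of 998 slopes, 53 lost and 15 gained the threshold, and most losses came with the runs as a block or without run 6. In the low against other libraries, higher genes numbered 132 with DESeq2, 9 with the run block, 33 without the treatment term, 8 in the runs holding a low library and 108 without the other libraries of run 6, an alternative chosen after seeing the data; lower genes numbered 401 with the block and 187 in those runs. Leaving out 1 low library gave 7 to 43 higher and 360 to 589 lower genes. Along Ttr, rising genes numbered 96 with the block and 504 without the library of lowest Ttr; falling genes numbered 136 with DESeq2, 1 with the block, 149 with the mean of the other 4 markers as the measure, 384 without the lowest and 12 without the highest Ttr library, and 1 without run 6. The interaction had 1 call with DESeq2 and 0 in each fit without 1 low library. The cause of these shifts was not tested. Total counts of ethanol calls stayed within 1.5 times under each alternative, but with no filter on low counts the genes lower with ethanol fell from 612 to 379 in the 20, from 1028 to 662 over 24 and from 1166 to 724 with the low group as a term. The labels give no replicate number or litter that pairs animals; the runs as a block were the nearest to a paired fit. With 4 low libraries, of which 2 share a run, genes of low counts are measured with few counts.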
